A study of Mus musculus with 4 samples.

Results

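Interferon-stimulated genes, the transcripts that interferons induce in most cell types, were followed by RNA-seq in an N-myc-driven B-cell leukaemia of mice with and without Anp32b. The genes were taken by symbol alone, among them the Ifit, numbered Ifi, Ifih1, Oas, numbered Gbp, Slfn, numbered Isg, Irgm, Iigp1, Igtp, Stat2 and interferon-induced Parp symbols, together with Usp18, Rtp4, Rsad2, Ddx58, Dhx58, Zbp1, Xaf1, Bst2, Cmpk2, Eif2ak2, Samd9l and Herc6. This choice found 86 of the 16613 symbols listed. Mx1 and Mx2, which the choice also names, were not analysed here. A few genes came in by name rather than by known induction, such as Isg20l2, a ribosomal RNA-processing nuclease.

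All 4 libraries came from GFP+ cells of the bone marrow of recipient mice, after transfer of B220+ marrow cells into which N-myc had been introduced by transduction, and both groups therefore carry N-myc. The donor cells were Anp32b+/+ (wild type, 2 libraries) or Anp32b-/- (knockout, 2 libraries) on the C57BL/6 strain. Anp32b encodes a nuclear acidic protein that binds histones. No source used here gives ages, times after transfer, the number of animals behind a library or any pooling. Each p-value therefore rests on the spread between these libraries alone, and that spread may be technical.

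Type I interferons bind the receptor IFNAR1/IFNAR2 and activate the kinases JAK1 and TYK2, which phosphorylate STAT2. STAT2 and IRF9 belong to the complex ISGF3, which binds the interferon-stimulated response element (ISRE) in the promoters of its targets. Type II interferon acts through the gamma-activated sequence (GAS). Many targets are also expressed at a basal level in blood cells without infection, kept up by low, constant interferon signalling and by other factors of the IRF family.

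The promoters of 5 genes are shown. Of these, 4 belong to the genes called lower with the smallest p among those whose window holds an ISRE core, so their matches were fixed by the choice. Ifi27 and Ifi209 had a smaller p than these 4. Ifi27 was left out because no window was found for it, and Ifi209 because its window held no match. Slfn2, with a smaller p than Ifi208, was also left out because its window held no match. Slfn3 was the least changed of the genes. They are the windows of 250 bases before to 50 bases after the RefSeq transcription start (build GRCm38.p6), written 5′ to 3′ on the gene's strand, with capitals marking each match of the ISRE core GAAANNGAA on either strand. Oas1a lies at chr5:120907476-120907775 (minus strand), Ifi206 at chr1:173491269-173491568 (minus), Ifi213 at chr1:173599223-173599522 (minus), Ifi208 at chr1:173673415-173673714 (plus) and Slfn3 at chr11:83191080-83191379 (plus).
Oas1a: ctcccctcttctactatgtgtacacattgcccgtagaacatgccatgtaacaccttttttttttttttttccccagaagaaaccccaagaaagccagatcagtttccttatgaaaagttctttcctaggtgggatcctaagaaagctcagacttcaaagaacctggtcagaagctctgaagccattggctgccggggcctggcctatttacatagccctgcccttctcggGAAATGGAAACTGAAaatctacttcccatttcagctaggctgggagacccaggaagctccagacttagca
Ifi206: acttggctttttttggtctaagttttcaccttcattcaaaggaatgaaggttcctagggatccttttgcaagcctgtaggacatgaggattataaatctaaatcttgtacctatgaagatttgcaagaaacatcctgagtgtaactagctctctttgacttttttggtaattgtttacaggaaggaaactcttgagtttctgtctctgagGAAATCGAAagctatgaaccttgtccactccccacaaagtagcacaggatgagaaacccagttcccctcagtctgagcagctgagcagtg
Ifi213: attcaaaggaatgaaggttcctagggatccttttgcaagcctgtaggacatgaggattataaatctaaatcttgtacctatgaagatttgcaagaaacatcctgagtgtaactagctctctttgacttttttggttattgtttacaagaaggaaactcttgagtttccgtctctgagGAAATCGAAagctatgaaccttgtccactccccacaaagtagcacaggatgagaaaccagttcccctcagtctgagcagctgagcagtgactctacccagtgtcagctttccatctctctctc
Ifi208: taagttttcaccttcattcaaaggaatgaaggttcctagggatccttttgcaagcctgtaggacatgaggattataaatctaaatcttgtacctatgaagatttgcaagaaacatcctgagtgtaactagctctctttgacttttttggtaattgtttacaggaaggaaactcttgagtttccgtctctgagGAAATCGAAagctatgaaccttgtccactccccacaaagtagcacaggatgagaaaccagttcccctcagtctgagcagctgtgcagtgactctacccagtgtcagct
Slfn3: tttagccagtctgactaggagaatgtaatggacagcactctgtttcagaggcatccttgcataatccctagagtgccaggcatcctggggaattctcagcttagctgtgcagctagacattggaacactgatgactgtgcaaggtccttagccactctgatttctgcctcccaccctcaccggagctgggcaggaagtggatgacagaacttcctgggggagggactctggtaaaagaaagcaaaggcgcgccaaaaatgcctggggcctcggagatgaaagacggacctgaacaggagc
The Oas1a window held 2 overlapping matches, which began at -20 and -14 relative to the start. The 3 Ifi windows held 1 match each, at -40 in Ifi206, -73 in Ifi213 and -58 in Ifi208. These 3 windows also share long identical runs, of 182 bases between Ifi206 and Ifi208 and 135 bases between Ifi213 and either of them, so they are not independent examples. The Slfn3 window held no match of these letters, but as the other 4 were chosen for holding one, nothing is read from the contrast.

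Promoter windows were found for 65 of the 86 genes, and 41 of these (63.1%) held the ISRE core, against 2638 of 27025 genes with a RefSeq window of the same length (9.76%). Among the genes called lower in knockout, as defined below, 28 of 40 (70.0%) held it, and among those tested but not called or called higher it was 7 of 14 (50%). The core was present in 16 of 24 (66.7%) of those lower by at least 2-fold and in 12 of 16 (75%) of those lower by less. Other genes called lower held the core at 9.87% and other genes called higher at 8.47%. Within the last 100 bases before the start, a match began in 25 of the 65 genes (38.5%) and in 3.21% of all genes with a window. A gene with several windows counted if any of them held a match. The GAS letters TTCNNNGAA, searched on both strands, occurred in 13 of the 65 genes (20%) against 9.55% of all genes with a window. An ETS-IRF composite, GGAANNGAA, which can overlap the ISRE core, occurred in 9 (13.8%) against 9.42%. These are matches of letters and say nothing of binding, and genes of 1 family share parts of their windows.

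Library totals lay between 19581575 and 19758671 estimated reads. Anp32b itself measured 774 and 853 CPM (reads scaled by TMM to a common library size) in wild type and 74.4 and 70.6 CPM in knockout, in the direction the labels give. B lineage genes were abundant in every library: Cd79a, a B-cell receptor signalling chain, measured 1914 and 1871 CPM in wild type and 1871 and 1929 CPM in knockout. Over the whole table, 12123 symbols passed the count filter and 2856 were called at an adjusted p under 0.05 by edgeR's quasi-likelihood test with Benjamini-Hochberg adjustment.

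Most tested interferon-stimulated genes were lower in the knockout, in every family. Of the 86 genes, 71 passed the filter, and 55 of these were called lower in knockout (77.5%), where 12.6% of all tested genes were called lower. Only 2, Parp11 and Ifi30, were called higher, where 10.9% of all tested genes were. The other 14 were not called. Both knockout libraries lay below both wild-type libraries for 62 of the 71 (87.3%), against 30.5% of all tested genes. The median log2 fold change was -0.80 (quartiles -1.73 and -0.36), beside 0.0021 over all tested genes. At least a 2-fold fall was measured for 32 genes and at least a 4-fold fall for 14, while 14 of the called falls were smaller than 1.5-fold. With no count filter 43 genes were called lower and 1 higher, beside 744 lower and 547 higher among all 16578 genes then tested. Without knockout replicate 2 the median log2 fold change of the interferon-stimulated genes was -0.81.

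Of the tested genes, 8 (Isg15, Oasl2, Ifit1, Ifit3, Iigp1, Gbp2b, Ifi44 and Rsad2) reached the filter's count in both wild-type libraries but not in both knockout libraries. Such genes are said here to have passed only through wild type, although in most of them a knockout library reached the count too. At least some knockout library of each had to lie below both wild-type libraries, which favours a fall. Among the 63 that passed in both genotypes, 48 were called lower and 2 higher, with a median of -0.68. Of the 11349 other genes that passed in both, 1324 were called lower and 1274 higher, with a median of 0.0064. Over the full 86, filtered genes included, the knockout mean was lower for 76 and higher for 10. Of the 16527 other symbols it was lower for 8346 and higher for 8146. The summed read counts of the 86 genes were 2447 and 2504 CPM in wild type and 1846 and 1818 CPM in knockout, 1.35-fold lower. This is less than the median gene, and Gbp7 and Gbp3, which take a large part of the sum, differed little. Within a genotype the genes showed no common shift, with 33 of 71 higher in the second wild-type library than in the first and 30 of 71 higher in the second knockout library.

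**Figure D1:**
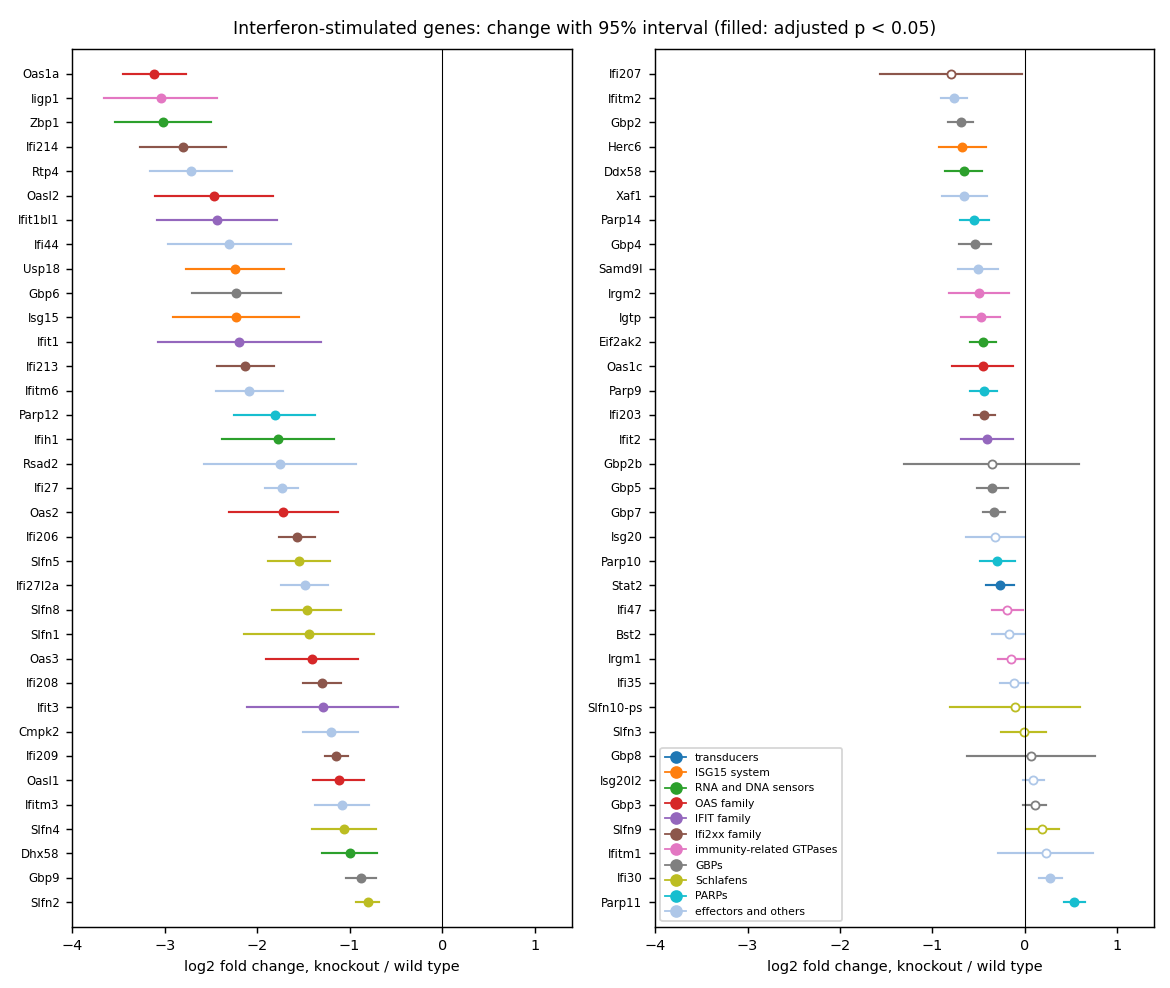
Log2 fold change of knockout over wild type (x axis) for the tested interferon-stimulated genes (y axis, ordered by the change), with the 95% interval of the edgeR fit as a bar and colour for the gene family. Filled points were called at an adjusted p under 0.05, and all of these except Parp11 and Ifi30 lie left of 0.

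The libraries also differed in transcripts of other cell types. Neutrophil markers were called lower for 16 of 17 tested genes (median -2.0), with a summed level of 662 and 673 CPM in wild type and 135 and 133 CPM in knockout. Monocyte and macrophage markers were called lower for 4 of 11, with sums of 92.2 and 88.0 CPM against 40.1 and 42.1 CPM, led by Lyz2 (lysozyme 2) at 55.8 and 54.9 CPM against 11.7 and 11.5 CPM. Markers of plasmacytoid dendritic cells, the main makers of type I interferon, fell for 3 of 6 tested genes without Bst2, while their sums, mostly Irf8 (not called), were 137.0 and 133 CPM against 126 and 122 CPM. The lineage-defining Siglech measured 2.36 and 2.17 CPM in wild type and 0.719 and 1.03 CPM in knockout. NK cell markers fell for 2 of 3, with sums of 5.42 and 6.81 CPM against 1.33 and 1.96 CPM. The called NK genes, Klrb1c (2 and 9 reads in knockout) and Nkg7 (5 and 6), had passed the filter only through wild type. So had Pacsin1 of the plasmacytoid list and Fcnb and Ly6g of the neutrophil list, all called lower. For these genes the filter favours a fall. T cell markers fell for 2 of 4, Cd4 and Lck. The sums of the T cell list, mostly Cd2 (not called), were not lower in knockout, at 103.9 and 109 CPM in wild type and 105 and 112 CPM in knockout. Of 8 erythroid genes, 1 (Car1) was called higher, and it had passed the filter only through knockout, which favours a rise. In the B lineage list 3 of 8 were called lower (Ebf1, Vpreb1 and Igll1), with sums of 5360 and 5308 CPM against 4928 and 4963 CPM. All 4 Y-linked genes, which mark male cells rather than a cell type, were lower as well. Their sums were 156 and 173 CPM in wild type and 42.5 and 41.7 CPM in knockout. Whether the groups differ in their share of male cells was not tested. The part of these differences in the fall of the interferon-stimulated genes was not tested, and in bulk libraries fewer cells of a type cannot be told apart from less RNA per cell.

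Stat2, the signal transducer of the type I and type III pathways, fell modestly. It measured 33.6 and 33.3 CPM in wild type and 28.1 and 27.6 CPM in knockout, a 1.2-fold difference (log2 fold change -0.27, SE 0.071, adjusted p = 0.0146). The knockout pair lay below the wild-type pair without overlap. The call of Stat2 was lost without knockout replicate 1 (adjusted p = 0.108), without knockout replicate 2 (0.172) and with DESeq2 (0.227), and its reads may mix with those of the overlapping gene Apof because the strand setting is unknown.

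Irf9, the DNA-binding subunit of the complex with Stat2, measured 40.2 and 35.0 CPM in wild type and 27.5 and 29.7 CPM in knockout (log2 fold change -0.40, SE 0.082, adjusted p = 0.00288). Irf7, the factor that amplifies interferon production and is itself interferon-induced, measured 5.02 and 4.29 CPM in wild type and 1.49 and 1.29 CPM in knockout, 3.34-fold below wild type (log2 fold change -1.74, SE 0.22, adjusted p = 5.31e-05). For neither gene did the pairs overlap. Without knockout replicate 1 or 2 the call of Irf9 was lost (adjusted p = 0.0684 and 0.0611).

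All 3 genes of the ISG15 system were called lower, with a median of -2.23. Among them Isg15 had passed the filter only through wild type, which favours a fall. Isg15, a ubiquitin-like protein that is attached to newly made proteins, measured 3.06 and 2.52 CPM in wild type and 0.462 and 0.723 CPM in knockout (log2 fold change -2.23, SE 0.32, adjusted p = 1.36e-04). Usp18, the protease that removes ISG15 and also restrains the type I receptor, measured 5.47 and 4.29 CPM in wild type and 0.98 and 1.08 CPM in knockout (log2 fold change -2.24, SE 0.25, adjusted p = 1.12e-05). Their falls of 4.68-fold and 4.72-fold were alike in size. Herc6, the ligase that attaches ISG15 in the mouse, measured 16.2 and 19.4 CPM in wild type and 12.1 and 10.1 CPM in knockout and fell 1.60-fold (log2 fold change -0.68, SE 0.12, adjusted p = 7.49e-04). Without knockout replicate 2 it was not called (adjusted p = 0.0693).

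Each of the 5 cytosolic nucleic acid sensors was called lower, with a median of -1.0. Zbp1, which senses Z-form nucleic acid and can start necroptosis, changed most: it measured 6.68 and 7.61 CPM in wild type and 1.13 and 0.620 CPM in knockout, 8.11-fold below wild type (log2 fold change -3.02, SE 0.24, adjusted p = 4.69e-07). Among the RIG-I-like receptors, Ddx58 (RIG-I) measured 20.8 and 19.7 CPM in wild type and 13 and 12.6 CPM in knockout (log2 fold change -0.66, SE 0.091, adjusted p = 9.29e-05). Dhx58 (LGP2), the member without a signalling domain, measured 9.79 and 9.58 CPM in wild type and 4.36 and 5.32 CPM in knockout (log2 fold change -1.0, SE 0.14, adjusted p = 1.10e-04). The knockout values of these 3 genes all lay below the wild-type values. Ifih1 (MDA5), the sensor of long double-stranded RNA, fell 3.42-fold, whereas Eif2ak2 (PKR), the kinase that stops translation on double-stranded RNA, fell 1.37-fold from a mean of 52.5 CPM.

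The 2′-5′-oligoadenylate synthetases, which make the activator of RNase L, had the largest summed fall of the 6 families whose counts were summed. All 6 tested genes of 9 were called lower, and the family's summed counts were 2.91-fold lower (log2 fold change -1.54, adjusted p = 4.32e-09). Among the 6, Oasl2 had passed the filter only through wild type, which favours a fall. Oas1a, whose promoter is printed above, measured 13.7 and 15.8 CPM in wild type and 1.69 and 1.70 CPM in knockout. It was the most reduced of the 71 genes, 8.65-fold below wild type (log2 fold change -3.11, SE 0.16, adjusted p = 6.34e-09), and its knockout libraries were nearly equal. Oasl2, an active synthetase with a ubiquitin-like tail, measured 3.41 and 3.18 CPM in wild type and 0.719 and 0.465 CPM in knockout (log2 fold change -2.46, SE 0.30, adjusted p = 2.82e-05). Oasl1, which lacks that activity and represses translation of Irf7 mRNA, measured 11.7 and 11 CPM in wild type and 4.88 and 5.58 CPM in knockout (log2 fold change -1.12, SE 0.13, adjusted p = 1.79e-05). Oas2 and Oas3 fell 3.29-fold and 2.66-fold. Oas1c, a member of the same chromosome 5 cluster, differed least (log2 fold change -0.46, adjusted p = 0.0452), and its call was lost with DESeq2 (0.416), with limma-voom (0.0532), with no filter (0.119) and without wild-type replicate 2 (0.216), knockout replicate 1 (0.169) or knockout replicate 2 (0.240).

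All 4 tested genes of the 6 IFITs, which bind foreign RNA by its 5′ end, were called lower from low counts. Of these, Ifit1 and Ifit3 had passed the filter only through wild type, which favours a fall. Ifit1bl1 measured 3.01 and 4.29 CPM in wild type and 0.719 and 0.620 CPM in knockout (log2 fold change -2.44, SE 0.30, adjusted p = 3.58e-05). Ifit1, the best-known member, measured 1.36 and 2.22 CPM in wild type and 0.462 and 0.310 CPM in knockout (log2 fold change -2.19, SE 0.41, adjusted p = 0.00138), and Ifit3, its binding partner, measured 1.31 and 1.11 CPM in wild type and 0.513 and 0.465 CPM in knockout (log2 fold change -1.29, SE 0.38, adjusted p = 0.0235). No knockout value reached a wild-type value. The annotated Ifit1bl1 overlaps Ifit1, Ifit1bl2 and Ifit3b, so the split of reads among these is uncertain. Summed over the family, counts were 1.84-fold lower (adjusted p = 1.51e-05). Without knockout replicate 2 the calls of Ifit1 (adjusted p = 0.0727) and Ifit3 (0.179) were lost, and that of Ifit3 also without wild-type replicate 1 (0.0916) or knockout replicate 1 (0.122) and with DESeq2 (0.338). Ifit2 measured 11.8 and 9.48 CPM in wild type and 8.26 and 7.75 CPM in knockout and fell 1.33-fold (adjusted p = 0.0357), a call lost with DESeq2 (0.338) and without wild-type replicate 1 (0.236), knockout replicate 1 (0.111) or knockout replicate 2 (0.286).

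The Ifi2xx genes encode PYHIN proteins, which bind DNA in the nucleus or cytosol. Of 10 listed, 7 were tested and 6 called lower, and their summed counts were 1.87-fold lower (log2 fold change -0.90, adjusted p = 1.88e-08). Ifi209 measured 189 and 205 CPM in wild type and 90.1 and 88.3 CPM in knockout, a 2.21-fold fall (log2 fold change -1.14, SE 0.057, adjusted p = 4.27e-09). Ifi206 measured 39.3 and 34.4 CPM in wild type and 12.9 and 11.9 CPM in knockout (log2 fold change -1.57, SE 0.092, adjusted p = 2.11e-08), and Ifi213 measured 14.3 and 12.4 CPM in wild type and 3.18 and 2.89 CPM in knockout (log2 fold change -2.13, SE 0.14, adjusted p = 8.72e-08). Between the wild-type and knockout pairs of these 3 genes there was a wide gap in every case. Ifi208, whose promoter is printed above with those of Ifi206 and Ifi213, fell 2.46-fold, and Ifi214 fell 6.98-fold. Ifi203 measured 163 and 170.2 CPM in wild type and 126 and 119 CPM in knockout and fell 1.36-fold (log2 fold change -0.44, SE 0.055, adjusted p = 3.80e-05). Ifi207 measured 1.56 and 1.06 CPM in wild type and 0.821 and 0.671 CPM in knockout and was not called (log2 fold change -0.80, 95% interval -1.57 to -0.035, adjusted p = 0.126). Ifi211, below the filter, had 22.8 estimated reads over the wild-type libraries and 0 over the knockout libraries. These genes are near copies of one another, so reads may be shared out among them.

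**Figure D2:**
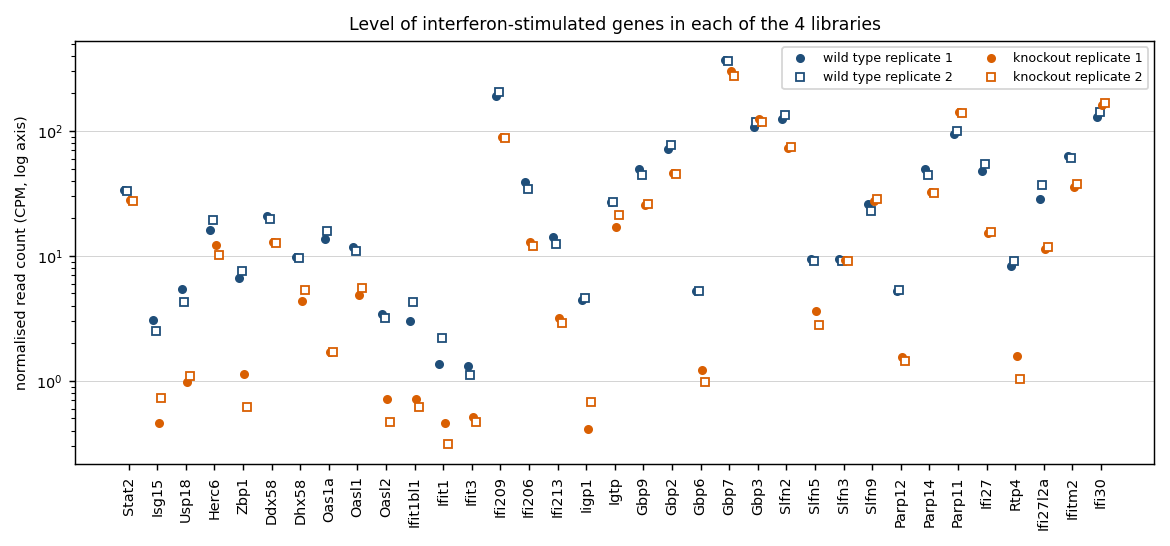
Normalised read count (y axis, CPM on a log scale) of interferon-stimulated genes (x axis, by family) in each library: blue for wild type, orange for knockout, circles for replicate 1 and squares for replicate 2. Both knockout points lie below both wild-type points for most genes, while those of Parp11, Ifi30 and Slfn9 lie above and Gbp3 and Slfn3 overlap.

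Induced GTPases were split between strong and small changes. The immunity-related GTPases act on membranes around intracellular pathogens. Of 5 tested, 3 were called lower, among them Iigp1. This gene had passed the filter only through wild type, which favours a fall. Iigp1, an effector that ruptures the vacuoles of parasites, measured 4.42 and 4.59 CPM in wild type and 0.411 and 0.671 CPM in knockout, 8.24-fold below wild type (log2 fold change -3.04, SE 0.28, adjusted p = 2.24e-06). The regulatory members had smaller changes. Igtp measured 26.8 and 26.9 CPM in wild type and 17.1 and 21.3 CPM in knockout (log2 fold change -0.48, SE 0.10, adjusted p = 0.00229), and Irgm2 measured 7.38 and 6.81 CPM in wild type and 4.52 and 5.52 CPM in knockout (log2 fold change -0.50, SE 0.15, adjusted p = 0.0287). Irgm1, needed for control of the effectors and for blood stem cell function, measured 37.6 and 38.4 CPM in wild type and 34.1 and 34.5 CPM in knockout and was not called (log2 fold change -0.15, 95% interval -0.29 to -0.0029). Ifi47 measured 51.2 and 60.2 CPM in wild type and 49.9 and 47.7 CPM in knockout and was not called either (-0.19, interval -0.35 to -0.025), although every knockout value in this family lay below every wild-type value. Ifi47 passed the test with the replicate block (adjusted p = 0.0344) and without wild-type replicate 1 (0.00148). Calls were lost for Igtp without knockout replicate 1 (0.0684) and for Irgm2 with DESeq2 (0.334) and without wild-type replicate 1 (0.0863), knockout replicate 1 (0.254) or knockout replicate 2 (0.0780).

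The guanylate-binding proteins (GBPs), large GTPases that coat pathogens and their vacuoles, mostly changed by a small factor. Of 10 listed, 9 were tested and 6 called lower, with summed counts 1.26-fold lower (log2 fold change -0.33, adjusted p = 0.000291). Gbp7 measured 369.8 and 359.7 CPM in wild type and 301 and 277 CPM in knockout, a fall of 1.26-fold (log2 fold change -0.34, SE 0.055, adjusted p = 4.29e-04), and it missed the threshold without knockout replicate 2 (adjusted p = 0.0955). Gbp9 measured 49.4 and 44.7 CPM in wild type and 25.4 and 25.8 CPM in knockout (log2 fold change -0.88, SE 0.075, adjusted p = 8.76e-07), and Gbp2 measured 71.3 and 77.2 CPM in wild type and 46.4 and 45.2 CPM in knockout (log2 fold change -0.70, SE 0.064, adjusted p = 1.84e-06). Gbp6 fell most in the family, 4.68-fold, from 5.22 and 5.19 CPM to 1.23 and 0.981 CPM (log2 fold change -2.23, SE 0.22, adjusted p = 4.89e-06). Among these called members the pairs did not overlap. Gbp4 fell 1.46-fold. Gbp5 fell 1.28-fold (adjusted p = 0.00386), a call lost without knockout replicate 1 (0.0654) or 2 (0.0863) and with DESeq2 (0.0704).

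Gbp3, Gbp2b and Gbp8 were not called. Gbp3 measured 108 and 118 CPM in wild type and 125 and 118 CPM in knockout, with overlapping pairs and a log2 fold change of 0.10 (95% interval -0.023 to 0.23, adjusted p = 0.236). Without wild-type replicate 2 it was called higher (adjusted p = 0.0312). Gbp2b measured 0.552 and 0.706 CPM in wild type and 0.513 and 0.465 CPM in knockout (-0.36, interval -1.30 to 0.59). Gbp8 measured 1.10 and 1.11 CPM in wild type and 1.03 and 1.29 CPM in knockout (0.065, interval -0.63 to 0.76), and its sign turned without knockout replicate 2 (-0.11). Gbp genes are similar in sequence, and single members are therefore less certain than the family sum.

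Schlafens, a family linked to growth control and restriction of viruses, were divided. Of 10 listed, 8 were tested, 5 called lower and 3 not called, with summed counts 1.56-fold lower (log2 fold change -0.64, adjusted p = 5.77e-07). Slfn2, which keeps resting T cells and monocytes quiescent, measured 124 and 134 CPM in wild type and 73.6 and 74.5 CPM in knockout (log2 fold change -0.80, SE 0.057, adjusted p = 1.43e-07). Slfn5 measured 9.49 and 9.18 CPM in wild type and 3.59 and 2.79 CPM in knockout (log2 fold change -1.55, SE 0.16, adjusted p = 5.24e-06), and Slfn8 measured 7.63 and 7.01 CPM in wild type and 2.93 and 2.38 CPM in knockout (log2 fold change -1.46, SE 0.17, adjusted p = 2.28e-05). In all 3 the knockout pair lay clearly below the wild-type pair. Slfn4, known from the myeloid lineage, fell 2.08-fold and Slfn1 2.71-fold, and Slfn1 lost its call without knockout replicate 2 (adjusted p = 0.102) and with DESeq2 (0.109). Slfn3 measured 9.44 and 9.13 CPM in wild type and 9.24 and 9.14 CPM in knockout, a log2 fold change of -0.014 (95% interval -0.26 to 0.23), and its pairs overlapped. Slfn9 measured 26.2 and 22.9 CPM in wild type and 27.3 and 28.6 CPM in knockout and was not called (0.19, interval 0.0067 to 0.37), with both knockout values above both wild-type values, but passed the test as higher without wild-type replicate 1 (adjusted p = 0.0210). The pseudogene Slfn10-ps measured 1.15 and 1.0 CPM in wild type and 1.03 and 0.981 CPM in knockout (-0.11, interval -0.81 to 0.60).

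**Figure D3:**
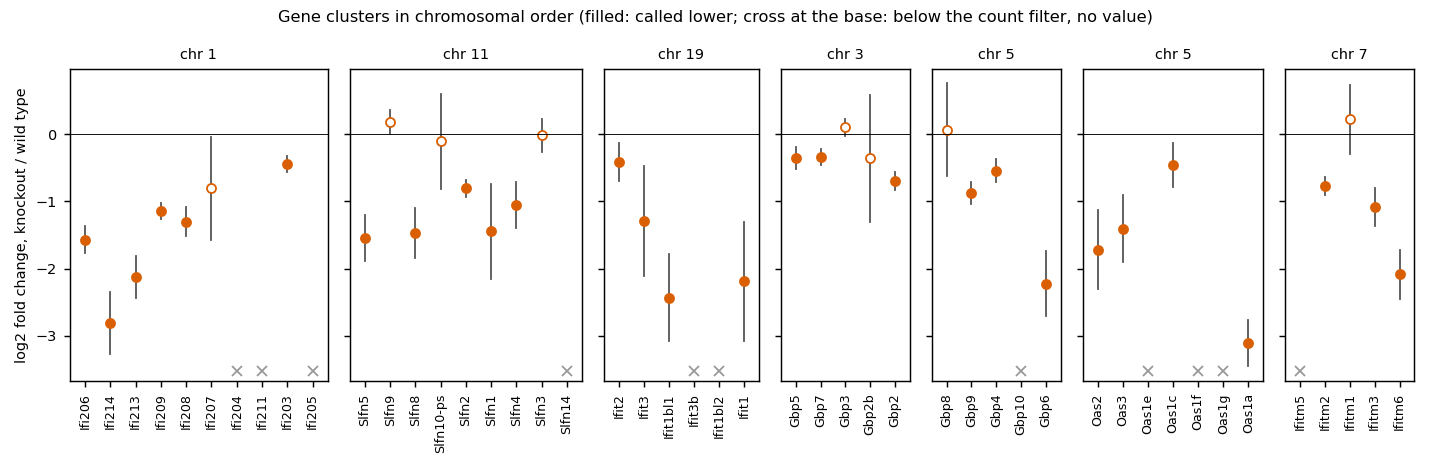
Log2 fold change of knockout over wild type (y axis, with 95% intervals) for the interferon-stimulated genes of the 7 gene clusters with at least 5 listed genes, in their order along the chromosome (x axis, spacing not to scale). Filled points were called lower, open points were not called and crosses at the base mark genes below the count filter; Gbp3, Gbp8, Slfn3 and Slfn9 sit near 0 beside neighbours that fell.

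Many of these genes stand in tandem clusters, and the changes varied within them. On chromosome 1, between positions 173468485 and 174031755 of GRCm38.p6, the 10 Ifi2xx genes share the region with 1 other listed gene, Mndal, also a PYHIN gene, which fell by a smaller factor (log2 fold change -0.21, SE 0.054, adjusted p = 0.00981) and lost its call without knockout replicate 1 (0.244) or 2 (0.108). On chromosome 11, between 82951349 and 83286726, the called Slfn5 and Slfn8 flank Slfn9. On chromosome 3, between 142496934 and 142638008, Gbp3 lies between Gbp7 and Gbp2. The Gbp cluster of chromosome 5, between 105012513 and 105295871, held both Gbp6, called lower, and Gbp8, not called. In the Oas cluster of the same chromosome (120730333 to 120907544) and the Ifit cluster of chromosome 19 (34550550 to 34662981), each tested gene was called lower, 4 of 4 in both. In the Ifit cluster, however, Ifit1 and Ifit3 had passed the filter only through wild type, which favours a fall. The Ifitm cluster on chromosome 7 (140948958 to 141016892) had 3 of 4 tested genes called lower.

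The 5 interferon-induced PARP genes, which transfer ADP-ribose and in several cases block viral replication, gave 4 falls and 1 rise. Parp12, a zinc finger member, measured 5.22 and 5.29 CPM in wild type and 1.54 and 1.45 CPM in knockout, 3.51-fold below wild type (log2 fold change -1.81, SE 0.21, adjusted p = 1.47e-05). Parp14 measured 49.6 and 44.8 CPM in wild type and 32.5 and 32.1 CPM in knockout (log2 fold change -0.55, SE 0.073, adjusted p = 6.71e-05). Parp9, the partner of the ubiquitin ligase Dtx3l, fell 1.36-fold, and its annotation overlaps that of Dtx3l, which was also called lower (log2 fold change -0.27, SE 0.069, adjusted p = 0.0110), though not without knockout replicate 2 (0.234) or with DESeq2 (0.133). Parp10 fell 1.23-fold (adjusted p = 0.0225), a call lost without wild-type replicate 2 (0.125), knockout replicate 1 (0.0577) or knockout replicate 2 (0.308) and with DESeq2 (0.217). Parp11, a mono-ADP-ribosyltransferase known to lower the type I receptor, measured 94.1 and 99.5 CPM in wild type and 142 and 139 CPM in knockout, 1.45-fold higher in knockout (log2 fold change 0.54, SE 0.055, adjusted p = 5.26e-06). Its knockout pair lay well above its wild-type pair.

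Among the 21 remaining effectors 17 were tested, 11 called lower and 1 higher, with a median of -0.77. The genes called lower include Ifi44 and Rsad2. These had passed the filter only through wild type, which favours a fall. Ifi27, a small mitochondrial membrane protein, measured 48.1 and 54.9 CPM in wild type and 15.2 and 15.6 CPM in knockout (log2 fold change -1.74, SE 0.085, adjusted p = 3.78e-09). Ifi27l2a, its neighbour, measured 28.4 and 36.8 CPM in wild type and 11.4 and 11.8 CPM in knockout (log2 fold change -1.49, SE 0.12, adjusted p = 3.95e-07), and since the annotated genes overlap their reads may not be separable. Their falls were 3.33-fold and 2.81-fold, with no overlap of the pairs. Rtp4, a receptor chaperone that also restricts RNA viruses, measured 8.23 and 9.08 CPM in wild type and 1.59 and 1.03 CPM in knockout, 6.57-fold below wild type (log2 fold change -2.71, SE 0.20, adjusted p = 2.55e-07), with an annotation that overlaps Masp1.

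The IFITM proteins hinder entry of enveloped viruses at the membrane, and their genes differed. Ifitm2 measured 63.0 and 60.8 CPM in wild type and 35.4 and 37.3 CPM in knockout (log2 fold change -0.77, SE 0.065, adjusted p = 8.25e-07). Ifitm3 measured 10.4 and 9.48 CPM in wild type and 4.77 and 4.60 CPM in knockout (log2 fold change -1.08, SE 0.13, adjusted p = 3.59e-05). Ifitm6, known from myeloid cells, measured 8.43 and 9.73 CPM in wild type and 2.10 and 2.17 CPM in knockout, 4.24-fold below wild type (log2 fold change -2.08, SE 0.17, adjusted p = 5.55e-07). Ifitm6 and the Schlafen Slfn4 thus fell beside the neutrophil and monocyte marker sums given above, whose part in these falls was not tested. Ifitm1 measured 2.26 and 1.97 CPM in wild type and 2.72 and 2.22 CPM in knockout with overlapping pairs and was not called (0.23, 95% interval -0.29 to 0.74).

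Of the antiviral enzymes, the neighbouring Rsad2 (viperin, which makes a chain-terminating nucleotide) and Cmpk2 (a mitochondrial nucleotide kinase) fell 3.36-fold and 2.31-fold. Rsad2 was near the filter, at 1.71 and 1.61 CPM in wild type and 0.667 and 0.310 CPM in knockout, and lost its call without knockout replicate 2 (adjusted p = 0.106) and with DESeq2 (0.0884). Ifi44 fell 4.93-fold. Xaf1, a pro-apoptotic antagonist of XIAP, fell 1.57-fold. Samd9l, a growth-restraining translation inhibitor, fell 1.42-fold (adjusted p = 0.00173), a call lost without knockout replicate 2 (0.0606) and with DESeq2 (0.0679).

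Some familiar interferon targets did not pass the test. Bst2 (tetherin), which holds budding virus at the cell surface and is a marker of plasmacytoid dendritic cells in the mouse, measured 31.2 and 32.5 CPM in wild type and 26.2 and 30.1 CPM in knockout (-0.18, 95% interval -0.35 to -0.0029, adjusted p = 0.137). Ifi35 measured 34.1 and 35.3 CPM in wild type and 32.1 and 31.8 CPM in knockout (-0.12, interval -0.27 to 0.030), and Isg20, an RNA exonuclease, measured 6.38 and 6.05 CPM in wild type and 4.88 and 5.06 CPM in knockout (-0.32, interval -0.64 to -0.0039). In these 3 the knockout values lay below the wild-type values all the same. Isg20l2 measured 91.6 and 92.6 CPM in wild type and 97.6 and 98.6 CPM in knockout (0.091, interval -0.023 to 0.20), with an annotation that overlaps Rrnad1. Ifi30, the lysosomal thiol reductase of antigen processing that is induced by type II interferon, measured 130.3 and 142 CPM in wild type and 162 and 168 CPM in knockout, 1.21-fold higher (log2 fold change 0.27, SE 0.057, adjusted p = 0.00290), with no overlap of the pairs. It missed the threshold with no filter (adjusted p = 0.0636) and without knockout replicate 2, where the log2 fold change was 0.25.

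The 15 genes below the filter were Oas1e, Oas1f, Oas1g, Ifit1bl2, Ifit3b, Ifi204, Ifi205, Ifi211, Gbp10, Slfn14, Slfnl1, Ifi27l2b, Ifitm5, Ifitm7 and Ifitm10. Their estimated reads over both wild-type libraries ranged from 0 for Oas1e to 22.8 for Ifi211. In knockout they ranged from 0 to 17.1, the latter for Ifi205. As these genes were not tested, no change is called for any of them.

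The genes with the lowest and the highest levels differed in their changes. The 24 tested genes with a mean under 5 CPM over the 4 libraries had a median log2 fold change of -1.79, and 19 were called lower. They include the 8 genes above that passed the filter only through wild type, which favours a fall. Without these 8, 12 of 16 were called lower, with a median of -1.75. From 5 to 25 CPM, 21 of 23 were called lower with a median of -1.0. At 25 CPM or more, 15 of 24 were called lower and 2 higher, with a median of -0.34. Other tested genes had medians of -0.17, -0.029 and 0.025 in the same 3 ranges, and 16.3%, 16.3% and 8.77% were called lower. Among those that passed in both genotypes the medians were -0.13, -0.028 and 0.025, with 14.4%, 16.2% and 8.77% called lower. Across genes, Spearman's rho between the mean level and the log2 fold change was 0.50 for the 71 tested genes and 0.19 for the 12052 others. Over the genes that passed in both genotypes it was 0.47 for 63 and 0.17 for 11349. All points share the same libraries and the knockout level enters both axes. Iigp1, Zbp1, Isg15 and Oasl2 belong to the lowest range, and Gbp7, Gbp3, Ifi203, Ifi30 and Parp11 to the highest.

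**Figure D4:**
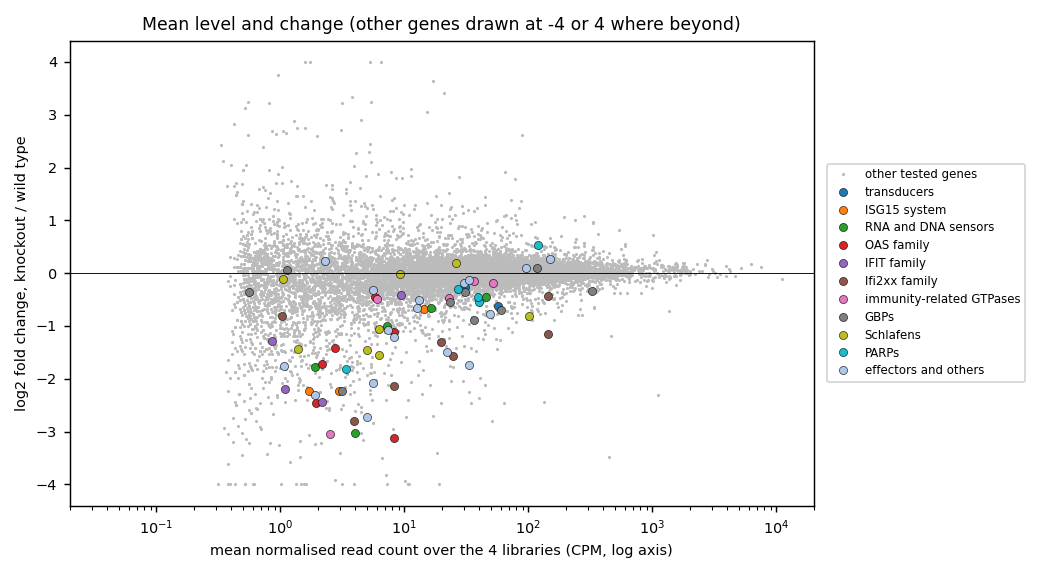
Mean normalised read count over the 4 libraries (x axis, CPM on a log scale) against the log2 fold change of knockout over wild type (y axis), with coloured points for the 71 tested interferon-stimulated genes by family and grey points for the 12052 other tested genes. The coloured points have a median of -1.79 under 5 CPM (-1.75 without the 8 genes that passed the filter only through wild type) and -0.34 at 25 CPM or more.

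Per kilobase of transcript, a scale on which genes can be compared with each other, the highest wild-type level among the 84 genes with a length belonged to Ifitm2, with means of 94.6 and 55.5 CPM per kb in wild type and knockout. Gbp7 followed at 89.9 and 71.2, Slfn2 at 77.7 and 44.5, Ifi27l2a at 70.4 and 25.1, Gbp3 at 69.0 and 74.2 and Ifi27 at 60.0 and 18 CPM per kb. Among the genes with a length, Gbp3 had the highest level in knockout, followed by Gbp7 and Ifitm2. Ifi30 and Slfn10-ps had no length and are not ranked. Ifi30 had means of 136 and 165 CPM in wild type and knockout, so its place on this scale is unknown.

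The other genes of the interferon pathway came from lists of receptors, kinases and regulators, IRFs, sensing genes and further inducible genes. Over these lists, without the genes above, 31 of 80 tested genes were called lower (38.8%) and 5 higher (6.25%), with a median of -0.12, beside 12.6% lower and 10.9% higher over all tested genes. Without knockout replicate 2 the counts were 16 lower and 2 higher, and 4.63% of all genes were then called lower. Ifnar1, the signal-starting chain of the type I receptor, measured 55.2 and 58.5 CPM in wild type and 50.2 and 48 CPM in knockout (log2 fold change -0.21, SE 0.064, adjusted p = 0.0272), and Ifnar2, its high-affinity partner, was not called (0.18, adjusted p = 0.0651). Ifngr1, the ligand-binding chain of the type II receptor, measured 60.6 and 59.4 CPM in wild type and 44.4 and 44.9 CPM in knockout (log2 fold change -0.43, SE 0.062, adjusted p = 1.46e-04), and Ifngr2 was not called (-0.089). In both receptors only 1 chain was thus called, and by less than 1.5-fold. Ifnar1 lost its call without wild-type replicate 2 (adjusted p = 0.0728), knockout replicate 1 (0.127) or knockout replicate 2 (0.307) and with DESeq2 (0.240). Of 10 interferon genes on the list 2 were analysed. Ifng had 1 and 4 reads in wild type and 0 and 1 in knockout, and Ifnk had 1 read in 1 knockout library.

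Among kinases and negative regulators, Jak1 measured 163 and 157 CPM in wild type and 133 and 138 CPM in knockout (log2 fold change -0.24, SE 0.053, adjusted p = 0.00437) and Jak2, the kinase of the type II receptor, measured 26.5 and 25.9 CPM in wild type and 22.5 and 18.9 CPM in knockout (log2 fold change -0.34, SE 0.090, adjusted p = 0.0140). Ptpn6 (SHP-1), a phosphatase that dampens cytokine receptor signals, measured 88.9 and 92.1 CPM in wild type and 145 and 144 CPM in knockout, 1.60-fold higher (log2 fold change 0.67, SE 0.053, adjusted p = 3.81e-07). Without knockout replicate 2 the calls of Jak1 (0.113) and Jak2 (0.265) were lost, that of Jak1 also without knockout replicate 1 (0.138) and that of Jak2 with DESeq2 (0.170). Of 10 tested IRF-list genes, 3 were called lower. Besides Irf7 and Irf9 this was Irf4, a B-cell factor that binds ETS-IRF elements with PU.1, at 417 and 403 CPM in wild type and 337 and 330.3 CPM in knockout (log2 fold change -0.30, SE 0.051, adjusted p = 6.55e-04), a call that did not hold without knockout replicate 2 (adjusted p = 0.0955). Irf1 (49.2 and 49.0 CPM in wild type and 50.8 and 47.2 CPM in knockout) and Irf8 (81.9 and 76.6 CPM in wild type and 87.0 and 80.8 CPM in knockout) were not called, with log2 fold changes of -0.0028 and 0.082.

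Nucleic acid sensing genes outside the list of interferon-stimulated genes gave 1 of 12 tested called lower and 3 higher, beside 12.6% and 10.9% of all tested genes, and nothing is read from counts this small. Tlr7, the endosomal receptor of single-stranded RNA, measured 7.43 and 8.02 CPM in wild type and 5.85 and 4.65 CPM in knockout (log2 fold change -0.56, SE 0.15, adjusted p = 0.0153). Traf3, the adaptor of interferon induction, measured 68.6 and 68.4 CPM in wild type and 87.3 and 79.7 CPM in knockout (log2 fold change 0.29, SE 0.061, adjusted p = 0.00344), and Sting1, the adaptor of cytosolic DNA sensing, measured 94.8 and 91.4 CPM in wild type and 106 and 107 CPM in knockout (log2 fold change 0.19, SE 0.054, adjusted p = 0.0189). The third called higher was Tlr9, an endosomal receptor of DNA (log2 fold change 0.44, SE 0.14, adjusted p = 0.0286). All 4 changes were below 1.5-fold. Calls were lost for Traf3 without knockout replicate 1 (0.125), for Tlr7 without wild-type replicate 2 (0.0538) or knockout replicate 2 (0.214) and with DESeq2 (0.230), and for Sting1 without knockout replicate 1 (0.154) or 2 (0.242) and with DESeq2 (0.106). Tlr9 lost its call without wild-type replicate 2 (0.161), knockout replicate 1 (0.199) or knockout replicate 2 (0.135) and with DESeq2 (0.304).

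Interferon-inducible genes that the symbols did not catch fell as well, 23 of 44 tested against 1 called higher, with a median of -0.31. Trim30a, a restriction factor of the TRIM family, measured 57.8 and 60.3 CPM in wild type and 29.2 and 26.7 CPM in knockout (log2 fold change -1.08, SE 0.070, adjusted p = 5.59e-08). Lgals3bp, a secreted galectin ligand, measured 30.7 and 28.5 CPM in wild type and 12.3 and 12.7 CPM in knockout (log2 fold change -1.25, SE 0.087, adjusted p = 1.11e-07), and Shisa5, a pro-apoptotic membrane protein, measured 74.7 and 68.0 CPM in wild type and 33.0 and 36.7 CPM in knockout (log2 fold change -1.03, SE 0.073, adjusted p = 1.33e-07). The pairs of these 3 genes were far apart. The largest fall of the list was in Ddx60, an RNA helicase of the RIG-I pathway, 8.32-fold. With 63 and 58 reads in wild type and 5 and 9 in knockout, Ddx60 had passed the filter only through wild type, which favours a fall. Ly6e, a surface protein of blood cells, was called higher by 1.11-fold (adjusted p = 0.0451), a call lost without knockout replicate 1 (0.335) or 2 (0.358), with upper-quartile scaling (0.105), with no filter (0.0804) and with the filter of 10 CPM (0.0847).

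**Figure D5:**
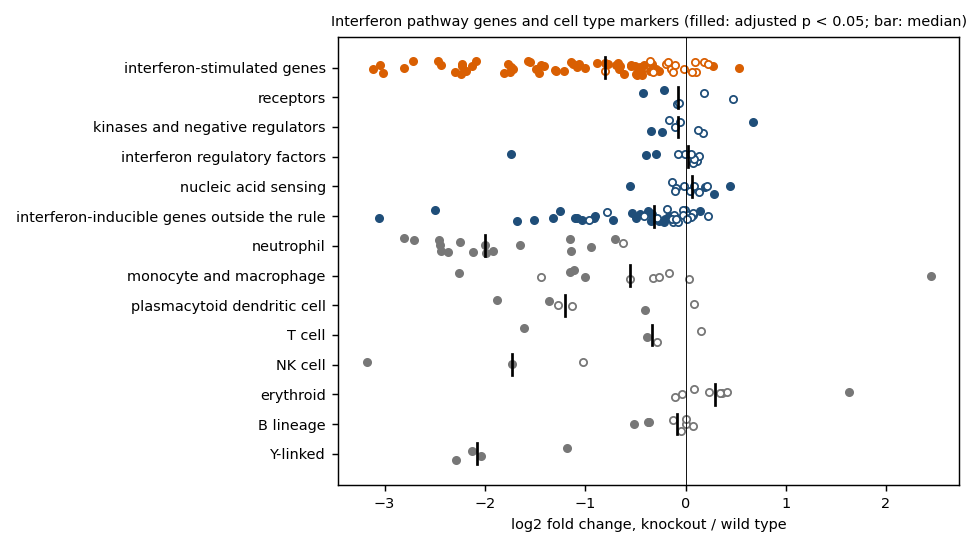
Log2 fold change of knockout over wild type (x axis) of single tested genes, 1 point each, grouped by list (y axis): interferon-stimulated genes in orange, other interferon pathway genes in blue, cell type markers and Y-linked genes in grey; vertical bars are medians and filled points were called at an adjusted p under 0.05. The median was -0.80 for the interferon-stimulated genes, -0.31 for the other inducible genes, -2.0 for neutrophil markers and -2.08 for Y-linked genes.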

How the data were processed

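RNA-seq was measured in 4 libraries, 2 per genotype, grouped by the genotype in the labels. The authors deposited expected counts (estimated reads per gene symbol, with decimals in 34.4% to 35.5% of the values), 1 file per library. Build GRCm38, HISAT2 2.0.4 and DESeq2 1.4.5 appear in the submitters' processing notes. How reads were counted, against which annotation and with which strand setting, is not given in the sources used here. Without a known strand, reads of overlapping genes cannot be told apart, which touches 24 of the 71 tested genes by their RefSeq annotation, 9 of them through another gene listed in the files.

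Counts were rounded to whole numbers and fitted for the whole table with edgeR 4.0.16 in R 4.3.3 (quasi-likelihood test, TMM, filterByExpr with a minimum count of 10, no covariate). P-values were adjusted by Benjamini-Hochberg over all 12123 tested genes, and calls were made at an adjusted p under 0.05. The procedure was tested on simulated data. Standard errors are the log2 fold change divided by the square root of F. Library totals were 19581575 to 19758671 estimated reads. The common biological coefficient of variation was 0.041, and intervals cover the spread of these libraries only. Replicates differed by more than counting error (chi-square per degree of freedom: 5.51 in wild type, 2.11 in knockout). An exact permutation test of 2 against 2 libraries was not run, as it cannot pass the threshold.

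All 86 symbols matched a RefSeq gene of GRCm38.p6, and transcript length was the median over protein-coding GENCODE transcripts. The genes, the families, the pathway lists and the marker lists were chosen with earlier results of these data known. The text names, with full statistics, the 3 called genes with the smallest p in each family and list, Stat2, Isg15, Usp18, Irf7 and Irf9, the 5 with the highest wild-type CPM, those called higher and those not called. Printed promoters belong to the 4 called genes with the smallest p among those with an ISRE core in a RefSeq window, and to the least changed gene. Mndal, Dtx3l, Ddx60, Ly6e, Tlr9, Irf1, Irf8, Ifnar2, Ifngr2, Ifit2, Rsad2, Ifitm2, Ifitm3, Ifitm6, Lyz2, Cd79a and Siglech were named after their values were seen. So were the markers Fcnb, Ly6g, Pacsin1, Klrb1c and Nkg7. Alternative settings were a block for the replicate number, DESeq2 1.42.0, RLE and upper-quartile scaling, limma-voom (limma 3.58.1), no filter, a filter of 10 CPM in 2 libraries, each library left out, and similar families left out or summed. The replicate numbers gave no sign of pairing, as the closing section describes. Some genes that this rule selects are not reported here by name, though they enter the counts.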

Additional observations from a re-analysis of the deposited data

How the results depend on the processing

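The count of interferon-stimulated genes called was 57 as reported and 58 with the replicate block (56 lower, 2 higher). Numbers shared between libraries do not pair them by the labels, and the deviations of same-numbered libraries from their group means correlated at 0.048 across genes. The block moved the pathway genes called from 36 to 37. RLE and upper-quartile scaling left 55 lower and 2 higher. DESeq2 called 47 (45 lower) and limma-voom 56 (54 lower), and of the pathway genes 27 (24 lower) and 36 (31 lower). The filter of 10 CPM gave 30 genes called (28 lower), leaving out the families of similar copies gave 27 (25 lower), and keeping genes of at least 5 CPM, an alternative chosen after seeing the data, gave 36 lower. These tested fewer genes. With no filter 1 gene was called higher. Lost with that setting were the calls of Stat2, Herc6, Ifit1, Ifit2, Ifit3, Igtp, Irgm2, Gbp5, Oas1c, Parp10, Rsad2, Slfn1 and Ifi30. Among named pathway genes the calls of Irf9, Ifnar1, Jak2, Traf3, Tlr7, Sting1, Dtx3l, Mndal, Tlr9 and Ly6e were lost too. Most of these losses are not repeated in the paragraphs on single genes. Leaving out each library in turn gave 43 to 57 called, 42 to 54 lower and 1 to 3 higher. The median log2 fold change was -0.94 with no filter, -0.56 with the 10 CPM filter, -0.67 without the families and -0.54 for genes of at least 5 CPM. Pathway genes called numbered 21 with no filter (20 lower, 1 higher), 3 were higher with DESeq2 and 3 with the 10 CPM filter. Leaving out libraries gave 18 to 42 called, 16 to 34 lower and 1 to 8 higher. The cause of these shifts was not tested.

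Of the 55 genes called lower, 41 were called under every alternative that tested them, and 69 of 71 kept their sign. The exceptions were Gbp8, which ranged from -0.11 to 0.22 as libraries were left out (lowest without knockout replicate 2), and Slfn3, which ranged from -0.042 to 0.010 (highest without wild-type replicate 1). Summing a family gave -0.33 for the Gbp genes, against the single values of Gbp3 and Gbp8, and -0.64 for the Schlafens, against that of Slfn9. Among all tested genes 1533 were called lower and 1323 higher, against 744 and 547 with no filter, 715 and 680 with DESeq2, 867 and 588 without knockout replicate 1 and 579 and 372 without knockout replicate 2. Where a library was left out, the spread of the 1 remaining library of that genotype was taken from the other genotype, and calls changed over the whole table, so a lost call does not show that the fold change moved. Low counts limit the precision of the genes under 5 CPM.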
